A study of Mus musculus with 2 samples.

Results

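A set of 9 genes that start or relay the unfolded protein response and the integrated stress response were followed in mouse fibroblasts under endoplasmic reticulum stress: the eIF2 kinases Eif2ak1, Eif2ak2, Eif2ak3 and Eif2ak4, the stress sensors Ern1 and Atf6, the transcription factor gene Xbp1, and the proteases Mbtps1 and Mbtps2. Their probes were found by gene name in both array files, which gave 19 probes for the 9 genes, of 41141 probes and 28080 gene names on the array. Of these probes, 14 were well above background in both fractions on both arrays and 5 were not, and no probe was saturated or flagged as an outlier. After a filter on low signals, 8 of the 9 genes could be compared, beside 10033 coding mRNAs in all, and Mbtps2 could not.

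The study measured polysome association in NIH3T3, an established mouse fibroblast line. Cells were grown subconfluent on 4 plates in DMEM with 10% bovine serum, and were either left as control cells or treated with 10 µM thapsigargin, which blocks the calcium pump of the endoplasmic reticulum, for 3 h (stressed cells). RNA was split on a 10 to 40% sucrose gradient into polysome-bound RNA (P), labelled with Cy3, and free plus monosome RNA (FM), labelled with Cy5. Each condition was 1 array with RNA pooled from 3 preparations, so there was no replicate check, no test between conditions was possible and no p-value is given.

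Misfolded protein in the endoplasmic reticulum is read by a trio of transmembrane sensors. PERK (Eif2ak3) phosphorylates eIF2 and thereby slows initiation on most mRNAs, IRE1 (Ern1) removes an intron from Xbp1 mRNA in the cytosol, and ATF6 travels to the Golgi apparatus, where the site-1 and site-2 proteases (Mbtps1 and Mbtps2) cut it to release a transcription factor. The other eIF2 kinases answer to other signals: HRI (Eif2ak1) to heme and mitochondrial stress, PKR (Eif2ak2) to double-stranded RNA, and GCN2 (Eif2ak4) to uncharged tRNA.

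For each mRNA, log2 P/FM is the log2 ratio of the polysome signal to the free and monosome signal, so that a higher value means a larger share on polysomes. A averages the log2 signal of P and that of FM, and stands for abundance. A change is the stressed value minus the control value. The nearest substitute for replicate error was the spread between different probes of 1 mRNA, whose median standard deviation (SD) was 0.32 for the change in log2 P/FM and 0.18 for the change in A, over 3412 mRNAs. This spread covers probe and spot error and not the spread between cultures. It was larger for dim mRNAs, at 0.49 for a mean A of 4.5 to 5.5, 0.41 for 5.5 to 7 and 0.28 above 7. Across all coding mRNAs the median change in log2 P/FM was -0.71 and the median change in A was 0.37, so each member is also given relative to these medians. Spike-in probes moved by -2.35 in log2 P/FM between the arrays. Scaling to them shifts every log2 P/FM change by as much in the other direction and leaves the differences from the median as they are. The study reports more RNA in P than in FM in control cells and the reverse under stress, and it kept these proportions in labelling. Whether scaling to the spike-in probes takes out part of this difference was not tested.

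The arrays themselves were alike in the number of spots measured, with 42.5% to 44.6% of spots well above background in P and 45.4% to 46.3% in FM. The mean P signal was 631 in control and 463 in stressed cells, and the mean FM signal 940 and 1386. Signals of single fractions below are not scaled between the arrays, so their folds do not give the RNA content of a fraction. Markers bore out a fibroblast line: 9 of 9 fibroblast genes on the array, with A between 6.47 and 14.94 in control cells, were well above background on both arrays, against 0 of 3 endothelial, 0 of 4 epithelial and 1 of 4 leukocyte markers. The exception was Cd3e, with A of 6.06 in control and 5.93 in stressed cells, and its part in the results was not tested. Both arrays were on 1 slide and in 1 scan.

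Each probe is a 60-base oligonucleotide and reads only the stretch of mRNA it pairs with. Some probes on which the results below turn are given 5′ to 3′ as printed on the array, with positions on mm9. They were taken to lie in protein-coding sequence from general knowledge of the genes and an open reading frame, since no annotation of this build was used. They are shown because different probes of 1 gene did not always give the same change.
Eif2ak1, chr5:144645612-144645671, plus strand: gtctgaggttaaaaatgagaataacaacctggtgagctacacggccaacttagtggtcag
Eif2ak4, chr2:118253620-118253679, plus strand: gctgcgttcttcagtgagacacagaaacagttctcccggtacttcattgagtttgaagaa
Eif2ak4, chr2:118296573-118296632, plus strand: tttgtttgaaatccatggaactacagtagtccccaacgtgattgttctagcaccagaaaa
Mbtps1, chr8:122042103-122042162, minus strand: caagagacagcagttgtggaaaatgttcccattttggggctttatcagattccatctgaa

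The members were, on balance, displaced less from polysomes than the median coding mRNA. Their median change in log2 P/FM was 0.06 (n = 8 genes) against -0.71, with values from -1.07 for Eif2ak1 to 0.59 for Ern1, and 6 of 8 lay above the median of all coding mRNAs. Their median change in A was 0.56, with values from -0.27 for Mbtps1 to 1.84 for Xbp1. A was higher in stressed cells for 7 of 8 members, against 76.8% of all coding mRNAs, and for 5 of 8 the change lay above the median of all coding mRNAs. These signs depend on the processing. With normexp background correction, 18743 coding mRNAs passed the filter on A, against 10033 in the main setting, and their median change in A was -1.48. The changes in A of Eif2ak1, Eif2ak2, Eif2ak3, Eif2ak4 and Ern1 turned negative there. Scaling to the spike-in probes made all 8 changes in log2 P/FM positive, from 1.27 for Eif2ak1 to 2.94 for Ern1. In RNA from whole cultures, more of an mRNA in each cell and more cells that carry it cannot be told apart.

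Against fixed limits, few members moved far in polysome association. A change of -1 or lower was found for 1 of 8 members (Eif2ak1) and for 40.8% of all coding mRNAs, and a change of 1 or higher for 0 of 8 members and 9.90% of all. Under the classes the study defined, 1 of 8 members was sensitive (a change of -0.8 or lower), against 47.0% of all. None was resistant (at or above 0.8 in log2 P/FM in each condition), against 3.00%, and none was inducible (at or below 0 in control cells with a change of 1 or more), against 8.86%. Just inside the limit for sensitive mRNAs lay Eif2ak1 at -1.07, and just outside it lay Mbtps1 at -0.76. In abundance, 3 of 8 members (Eif2ak3, Atf6 and Xbp1) had a change in A of 1 or more, against 11.7% of all, and 0 of 8 had a change of -1 or lower, against 0.698%. Xbp1 alone stayed at 1 or more with normexp, no background subtraction, processed signals and centring, where Eif2ak3 and Atf6 lay below 1. Atf6 also lay below 1 at its brightest probe (0.99), and Eif2ak3 with no filter on A (0.43), where a dim clone probe entered its average. With 8 genes and no replicate arrays, these counts are descriptions of the members and not a test.

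**Figure D1:**
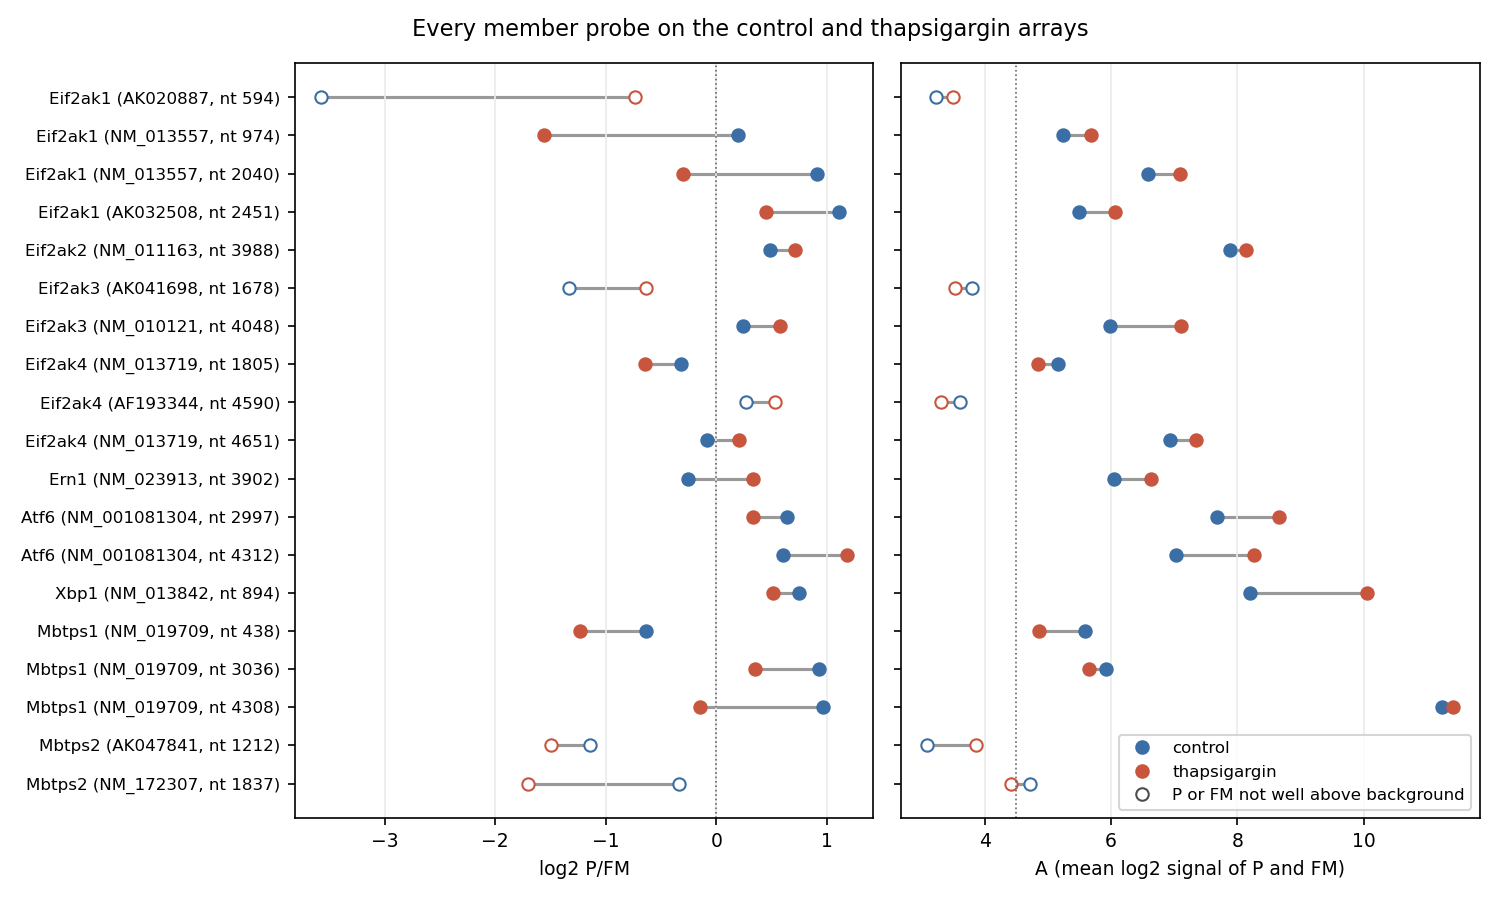
Every probe of the 9 genes, with log2 P/FM on the left and A (log2 signal) on the right, in control (blue) and stressed cells (red); nt is the probe's position in the transcript, open symbols mark a P or FM signal not well above background, and the dotted lines mark 0 and the filter of 4.5 on A. The probe of Xbp1 moved furthest to the right in A, and all probes of Eif2ak1 and Mbtps1 with filled symbols moved to the left in log2 P/FM.

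**Figure D2:**
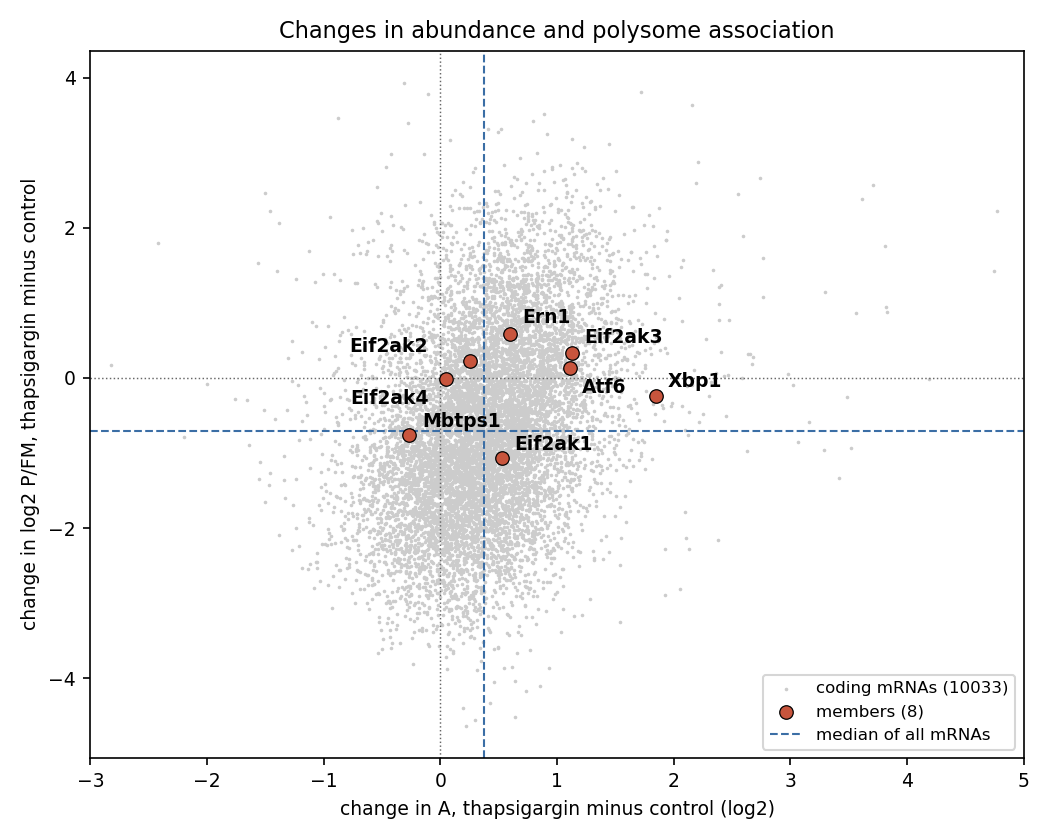
Change in log2 P/FM (vertical) against change in A (horizontal), stressed minus control on the log2 scale, for 8 members (red) over 10033 coding mRNAs (grey), 1 point per mRNA; blue dashed lines are the medians of all coding mRNAs, at -0.71 and 0.37. Eif2ak3, Ern1 and Atf6 lie above and to the right of both medians, and Xbp1 lies furthest to the right.

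The sensors of the endoplasmic reticulum, Eif2ak3, Ern1 and Atf6, had a higher A in stressed than in control cells, save that the A of Eif2ak3 and Ern1 was lower with normexp. In log2 P/FM, Eif2ak3 and Ern1 were higher in stressed cells and the probes of Atf6 disagreed. The median change over these 3 genes was 0.33 in log2 P/FM and 1.11 in A. All 3 lay above both medians of all coding mRNAs.

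Eif2ak3 (NM_010121) encodes PERK, the only eIF2 kinase anchored in the endoplasmic reticulum membrane. Its P signal was 68.9 in control and 169 in stressed cells, and its FM signal 58.3 and 113. Its signal, not scaled between the arrays, was thus higher in both fractions under stress, at 2.45-fold in P and 1.94-fold in FM. Its log2 P/FM went from 0.24 to 0.57, a change of 0.33. This is about the size of the spread between probes over all mRNAs (0.32) and below that at a mean A of 5.5 to 7 (0.41). It lay 1.05 above the median of all coding mRNAs. Against mRNAs of similar A (a mean A within 0.5 of its own), the gap was 0.61. A was 5.99 and 7.11, a change of 1.13 or 2.18-fold, larger than the spread between probes and above that of 92.4% of coding mRNAs. These values rest on 1 probe of 1 spot, at chr6:70854787-70854846. A probe for the clone AK041698, also named Eif2ak3, was not well above background in either condition and was not used in the main setting. It entered the average with no filter on A, no background subtraction and normexp.

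Ern1 (NM_023913) encodes IRE1, the kinase and endoribonuclease that splices Xbp1 mRNA. Its P signal was 60.4 in control and 112 in stressed cells, and its FM signal 72.1 and 88.6. The polysome signal was 1.85-fold and the FM signal 1.23-fold that of control cells. Its log2 P/FM went from -0.26 to 0.33. The study kept the proportions of the fractions in labelling and takes a value of 0 as equal distribution. That reading was not checked here, and the spike-in probes did not lie at 0. The median log2 P/FM of the spike-in probes was -1.01 on the control array and -3.36 on the array of stressed cells. The change of 0.59 for Ern1 was the highest among the members, exceeded that of 84.0% of coding mRNAs and lay 1.30 above their median. The gap to the median of mRNAs of similar A was 0.80. A was 6.04 and 6.64, a change of 0.59. Here too all values come from 1 probe, at chr11:106258948-106259007.

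Atf6 (NM_001081304) encodes the membrane-bound transcription factor precursor. Of its 2 probes, the one at position 2997 of the transcript had P signals of 254 in control and 454 in stressed cells and FM signals of 164 and 360. The probe at position 4312 had P signals of 161 and 462 and FM signals of 106 and 203. Both probes had more signal in both fractions under stress, and they differed in which fraction gained more. The change in log2 P/FM was -0.30 for the first probe and 0.58 for the second, with a mean of 0.14 ± 0.62 (SD, n = 2 probes), so no direction of its polysome association can be given. The change in A was 0.99 and 1.23, with a mean of 1.11 ± 0.17 (SD, n = 2 probes), which is 2.15-fold and above that of 91.8% of coding mRNAs.

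Xbp1 (NM_013842), which encodes the transcription factor made from the IRE1-spliced mRNA, had the largest change in abundance among the members. Its P signal was 383 in control and 1266 in stressed cells, and its FM signal 228 and 888. The P signal was thus 3.31-fold and the FM signal 3.90-fold that of control cells. A was 8.21 in control and 10.05 in stressed cells, a change of 1.84 or 3.59-fold, above that of 99.2% of coding mRNAs. log2 P/FM was 0.75 and 0.51, a change of -0.24 that is smaller than the spread between probes and that was positive in 6 of 16 alternatives. Among 1256 coding mRNAs whose mean A lay within 0.5 of that of Xbp1, the median change in log2 P/FM was -1.01, with 5th and 95th percentiles of -2.57 and 1.20. The change of Xbp1 relative to all coding mRNAs was 0.48, and it was -0.04 with normexp background correction. All values come from 1 probe at chr11:5424970-5425029, which lies downstream of the intron that IRE1 removes, so spliced and unspliced forms are not told apart.

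The other eIF2 kinases differed from one another. Eif2ak1 (NM_013557), the heme-regulated kinase HRI, was the only member with a change in log2 P/FM of -1 or lower. At the probe printed above its P signal was 40.3 in control and 29.8 in stressed cells, and its FM signal 35.1 and 87.7. The polysome signal was thus 0.74-fold and the free and monosome signal 2.50-fold that of control cells. A probe at position 2040 had P signals of 131 and 122 and FM signals of 69.9 and 151, and a probe for the clone AK032508 had P signals of 65.9 and 78.3 and FM signals of 30.5 and 57.3. All 3 probes had a lower log2 P/FM under stress, with changes of -1.75, -1.22 and -0.66. Averaged by accession, log2 P/FM went from 0.83 to -0.24, a change of -1.07. This gives the clone probe as much weight as the other probes together. The SD over the 3 probes, each counted once, was 0.55. With RefSeq accessions alone the change was -1.49.

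Relative to all coding mRNAs, the change of Eif2ak1 was -0.36 from the median, and 38.3% of coding mRNAs had a lower one. Among 1677 mRNAs of similar A the median change was -0.19, with 5th and 95th percentiles of -1.78 and 1.77. Its own change was thus -0.88 from that median. The value relative to all coding mRNAs was -0.66 with a filter of 5.5 on A, -0.77 with RefSeq accessions alone and -0.94 with processed signals. In the other direction, it was -0.02 with normexp, 0.03 with no background subtraction and 0.90 with no filter on A. The A of Eif2ak1 was 5.70 in control and 6.22 in stressed cells, a change of 0.53 averaged by accession, which is 1.44-fold. Over the 3 probes, each counted once, the SD was 0.07. Another probe, for the clone AK020887, was not well above background on both arrays. Letting it in by dropping the filter on A turned the change in log2 P/FM to 0.23, and scaling to the spike-in probes or normexp background correction turned it to 1.27 or 0.31.

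Eif2ak2 (NM_011163), the kinase PKR that is induced by interferon, moved little. Its P signal was 277 in control and 358 in stressed cells, and its FM signal 199 and 219. log2 P/FM was 0.48 and 0.71, a change of 0.23 that is smaller than the spread between probes, although it lay 0.94 above the median of all coding mRNAs. The change in A was 0.25 and lay 0.12 below the median of all coding mRNAs. It turned negative with processed signals, at -0.17, with centring of each array, at -0.23, and with normexp, at -0.45. The gene is represented by 1 probe, at chr17:79252168-79252227.

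Eif2ak4 (NM_013719), the amino acid sensor GCN2, had probes of opposite sign. The first of the 2 printed above had P signals of 32.1 in control and 23.0 in stressed cells and FM signals of 40.1 and 36.0. The second had P signals of 119 and 175 and FM signals of 126 and 151. The dimmer probe thus lost signal in both fractions and the brighter one gained in both. Their changes in log2 P/FM were -0.33 and 0.29, and the mean was -0.02 ± 0.44 (SD, n = 2 probes), which lay 0.70 above the median of all coding mRNAs and 0.18 above that of mRNAs of similar A. Their changes in A were -0.32 and 0.41, with a mean of 0.05 ± 0.52 (SD, n = 2 probes), so neither measure had a direction beyond the spread of its probes. The remaining probe, AF193344, was not well above background and has no position in the files.

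Of the protease genes, Mbtps1 could be compared and Mbtps2 could not. Mbtps1 (NM_019709), which encodes the site-1 protease, was the only member with a lower A under stress in the main setting. At its probe at position 438 the P signal was 38.4 in control and 19.1 in stressed cells, and the FM signal 59.9 and 44.7. At the probe printed above P was 83.5 and 57.0 and FM 44.0 and 44.7, and at the bright probe at position 4308 P was 3372 and 2602 and FM 1726 and 2879. The polysome signal was lower under stress at all 3 probes, while the FM signal was lower at 1 and higher at 2.

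The changes of Mbtps1 in log2 P/FM were -0.59, -0.58 and -1.11, with a mean of -0.76 ± 0.31 (SD, n = 3 probes). This lay 0.05 below the median of all coding mRNAs, and 48.5% of coding mRNAs had a lower change, so its displacement was that of a typical mRNA on these arrays. Its direction turned to 1.59 when both channels were scaled to the spike-in probes, as it did for the median of all coding mRNAs, which turned to 1.63. The change in A was -0.27 ± 0.45 (SD, n = 3 probes), with -0.72, -0.26 and 0.18 at the single probes, so the brightest probe gave the opposite sign.

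Mbtps2 (NM_172307), which encodes the site-2 protease, gave no reliable ratio. Its P signal was 23.5 in control and 11.9 in stressed cells and stayed too close to background in both conditions, and its FM signal was 29.7 and 38.7. The values of log2 P/FM that these signals give, -0.34 and -1.70, rest on a P signal not well above background, and no change is given. The second probe of the gene, for the clone AK047841, was not well above background either. The mRNA was thus detected in the FM fraction on both arrays, and its dim P signal does not show that it was absent from polysomes.

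**Figure D3:**
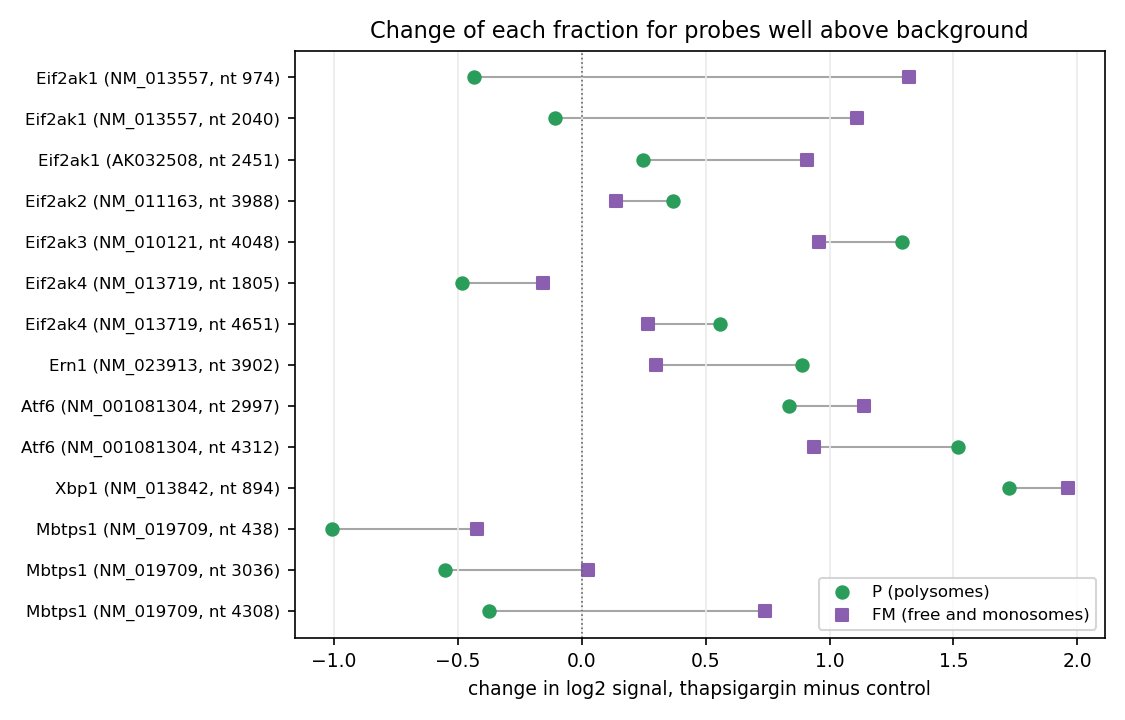
Change in log2 signal, stressed minus control, of the P fraction (green circles) and the FM fraction (purple squares) for the 14 member probes well above background in all 4 signals; the dotted line marks 0 and nt is the position in the transcript. Both signals, not scaled between the arrays, were higher under stress at the probes of Eif2ak2, Eif2ak3, Ern1, Atf6 and Xbp1. At all probes of Eif2ak1 and Mbtps1 the P fraction lies to the left of the FM fraction.

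The order of the members by change in log2 P/FM ran from Ern1 (0.59) through Eif2ak3 (0.33), Eif2ak2 (0.23), Atf6 (0.14), Eif2ak4 (-0.02), Xbp1 (-0.24) and Mbtps1 (-0.76) to Eif2ak1 (-1.07). From Ern1 to Xbp1 each neighbour in this order differed by less than the median SD between probes of 0.32, so the order of neighbours is not resolved, and the same holds for Mbtps1 and Eif2ak1. The step from Xbp1 to Mbtps1 was larger than that SD. In A the order was Xbp1 (1.84), Eif2ak3 (1.13), Atf6 (1.11), Ern1 (0.59), Eif2ak1 (0.53), Eif2ak2 (0.25), Eif2ak4 (0.05) and Mbtps1 (-0.27). Here the steps from Xbp1 to Eif2ak3, from Atf6 to Ern1 and from Eif2ak1 to Eif2ak2 exceeded the median SD between probes of 0.18. The places of Eif2ak2, Eif2ak4 and Mbtps1 are not resolved, because the probes of Eif2ak4 and Mbtps1 themselves had SDs of 0.52 and 0.45.

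The likeness of patterns was measured as the Euclidean distance over log2 P/FM in control cells, log2 P/FM in stressed cells and the change in A, from 2 arrays. Eif2ak3 and Atf6 were each other's nearest member, at a distance of 0.42. The nearest member was Eif2ak3 for Ern1 (0.77) and Atf6 for both Eif2ak2 (0.87) and Xbp1 (0.79). Mbtps1 and Eif2ak4 were each other's nearest (0.71), and Mbtps1 was nearest to Eif2ak1 (0.90). Among brighter coding mRNAs, with A above 7, the 3 nearest to Eif2ak3 were Zfp746, Sec24b and Paf1, with distances from 0.11 to 0.14. Those nearest to Ern1 were Tcf20, Wapl and Mapk6 (0.05 to 0.09). Xbp1 had no neighbour as close as these, the nearest being Id2, H1f0 and Fosl1 (0.22 to 0.33).

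The genes that act beside the members were read from 8 lists with 69 entries, of which 62 were measured. Of 9 genes of eIF2 and eIF2B, 8 were measured and 7 were sensitive, against 47.0% of all coding mRNAs, with a median change in log2 P/FM of -1.32 and a median change in A of 0.49. The lowest were Eif2b5 at -1.89 and Eif2s1, the subunit that the kinases phosphorylate, at -1.57. Eif2b1 was at -1.05, and the exception was Eif5, a GTPase activator of eIF2, at 0.63 ± 0.80 (SD, n = 2 probes). The median of the list was 0.61 below that of all coding mRNAs, and it stayed below in 15 of 15 alternatives. The gap ranged from -1.24 with normexp to -0.15 with processed signals. It was -0.23 with A above 7, a filter that all 8 genes passed and under which the median of all coding mRNAs was -1.10. No list was compared with mRNAs of similar A. The sign of the median change of this list turned with scaling to the spike-in probes, to 1.02. Centring and spike-in scaling are among the alternatives and cannot change the position relative to all coding mRNAs, here or in the lists below.

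All 8 regulators of the kinases were measured and 6 were sensitive, against 47.0% of all, with a median change in log2 P/FM of -1.28. Prkra and Tarbp2, which bind double-stranded RNA and act on PKR, were at -2.41 and -2.10, and Tarbp2 also had the lowest change in A of this list, at -1.38. Impact, an inhibitor of GCN2, was at 1.01 in log2 P/FM and 1.04 in A, and Oma1, a mitochondrial protease upstream of HRI, was at 0.21. Dnajc3, an endoplasmic reticulum co-chaperone known as an inhibitor of PERK and PKR, had the highest change in A, at 1.36. Dele1, the relay between Oma1 and HRI, had one of 0.32. The median of this list lay below that of all coding mRNAs in 15 of 15 alternatives, and scaling to the spike-in probes turned its sign, to 1.07.

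The phosphatases that reverse eIF2 phosphorylation split by subunit. Of 5 genes measured, the targeting subunits Ppp1r15a (GADD34) and Ppp1r15b (CReP) were at 2.45 and 1.15 in log2 P/FM, with changes in A of 2.55 and 0.72. The catalytic subunits Ppp1ca and Ppp1cc were at -3.21 and -1.90, and Ppp1cb was at 0.00. In A, Ppp1ca was at -0.26 and Ppp1cb at 0.38.

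Downstream of PERK, 9 of 10 genes of the ATF4 branch were measured, and Atf3 was below the filter. Of these, 3 had a change in log2 P/FM of 1 or more (Atf4 at 3.42, Ddit3 at 2.58 and Atf5 at 1.88), against 9.90% of all coding mRNAs. Against 47.0% of all, 1 was sensitive (Asns, asparagine synthetase, at -1.44), while Chac1, a glutathione-degrading enzyme, was at -0.59. A change in A of 1 or more was found for 7, against 11.7% of all. The highest were 3.71 for Ddit3 (CHOP) and 3.48 for Trib3, and the lowest 0.11 for Atf5 and 0.79 for Atf4. The median change was 0.32 in log2 P/FM and 1.36 in A, and both medians lay above those of all coding mRNAs in every alternative that gives them, 15 and 12.

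Of the partners of IRE1, 6 of 8 were measured, while Ern2 and Map3k5 were below the filter. The median change in log2 P/FM was -0.73, close to that of all coding mRNAs, and 3 were sensitive, against 47.0% of all. Traf2, the adaptor that links IRE1 to kinase signalling, was at -1.64, and Ptpn1, a phosphatase of the endoplasmic reticulum membrane, at -1.04. Rtcb, the ligase that joins the Xbp1 exons, was at -0.26, and Tmbim6 was at -0.53. In A, Traf2 was at 0.66, Ptpn1 at 0.50, Rtcb at 0.35 and Zbtb8os, a partner of the ligase, at -0.53.

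All 9 targets of XBP1 were measured, with a median change of 0.01 in log2 P/FM and 0.70 in A. Of these, 3 were sensitive, against 47.0% of all coding mRNAs, and 3 had a change in A of 1 or more, against 11.7%. Srpr, the receptor of the signal recognition particle, and Sec61b, a subunit of the translocon, were at -1.16 and -0.97 in log2 P/FM. Sec24d, a coat protein of export vesicles, and Serp1 were at 0.52 and 0.36, and in A at 1.00 and 0.97. The change of Serp1 in log2 P/FM had an SD of 0.96 over its 2 probes. The lowest changes in A were 0.24 for Spcs3 and 0.40 for Srpr.

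Targets of ATF6 had the largest median change in A of the 8 lists, at 1.54. Of 12, 11 were measured, and 10 had a change in A of 1 or more, against 11.7% of all coding mRNAs. The highest were Herpud1 at 4.19 and Hsp90b1 (GRP94) at 2.58, and the lowest Calr at 1.22 and Sel1l at 0.91. In polysome association 5 were sensitive, against 47.0% of all coding mRNAs, among them Creld2 at -2.90 and Manf at -2.50. A change in log2 P/FM of 1 or more was found for 2, against 9.90% of all, Hspa5 (BiP) at 1.36 and Sel1l at 1.06. The change of Sel1l had an SD of 1.05 over its 2 probes. Over the list the median change in log2 P/FM was -0.38. In A the median lay above that of all coding mRNAs in 12 of 12 alternatives.

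Of 8 substrates of the site-1 and site-2 proteases, 6 were measured and 2 were sensitive, against 47.0% of all coding mRNAs. Atf6b, a relative of Atf6, was at -1.85 in log2 P/FM and 0.28 in A, far from the 0.14 and 1.11 of Atf6. Creb3 was at -0.68 in log2 P/FM and 0.41 in A. Creb3l2 was at 0.02 and 1.00, and Srebf1, the regulator of lipid synthesis genes, at -0.35 and 1.24. The lists were chosen with the roles of the genes in view and with earlier results of these data known. They were not tested against other genes.

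**Figure D4:**
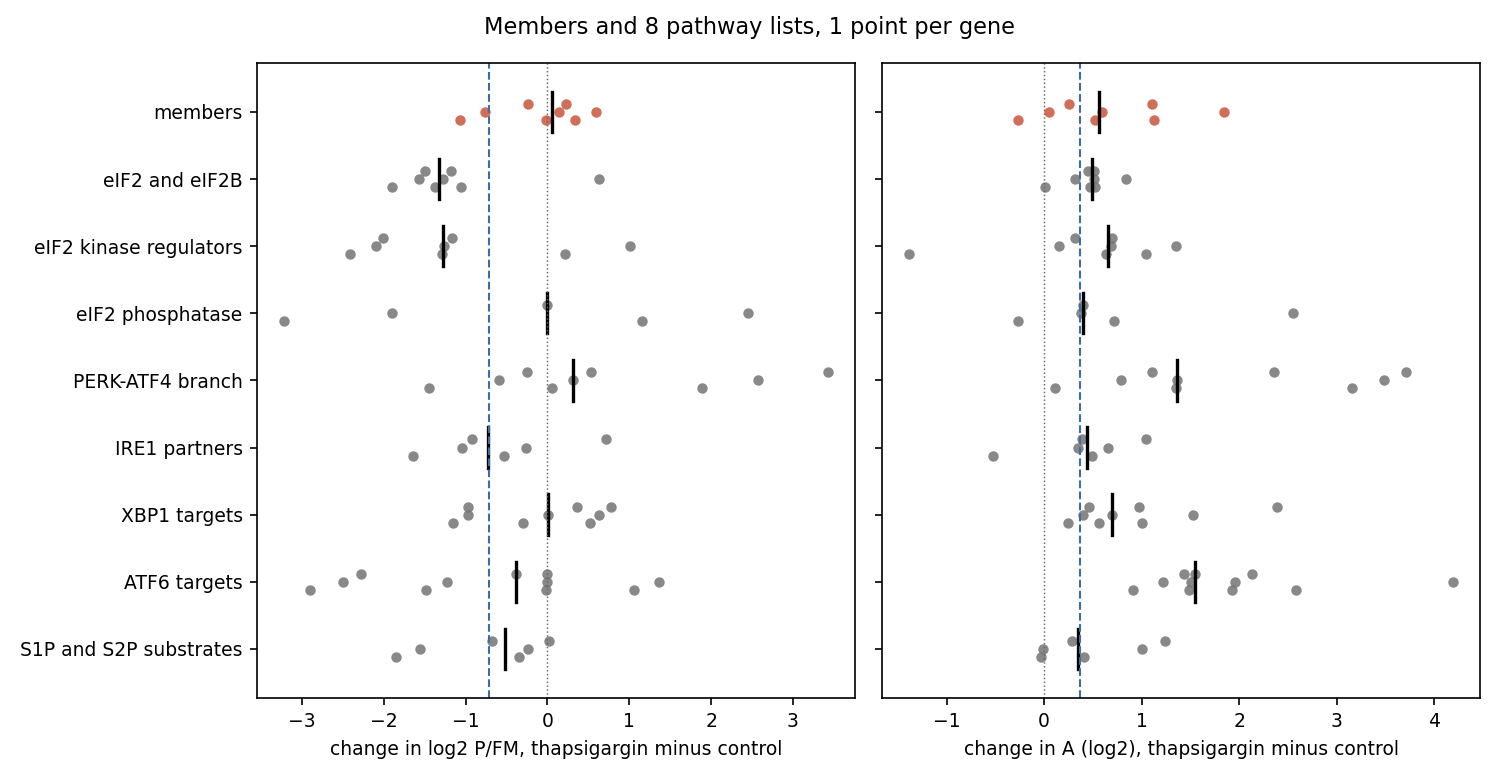
Change in log2 P/FM (left) and in A (right), stressed minus control on the log2 scale, with 1 point per gene for the 8 members compared (red) and the measured genes of 8 lists (grey); black bars are medians, blue dashed lines the medians of all coding mRNAs (-0.71 and 0.37) and dotted lines 0. The median of eIF2 and eIF2B in log2 P/FM is -1.32 against 0.06 for the members, and the median of the ATF6 targets in A is 1.54.

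Because no normalization between the arrays was applied, the position of each member relative to all coding mRNAs was followed through the alternatives of processing. Centring and spike-in scaling shift all mRNAs alike and so cannot change these positions, and keeping outlier spots left them almost as they were. The counts below include these settings. The set of all coding mRNAs also differed between settings, from 5630 with A above 7 to 18743 with normexp, no background subtraction and no filter on A. In log2 P/FM, Eif2ak2, Eif2ak3, Eif2ak4, Ern1 and Atf6 lay above the median of all coding mRNAs in every alternative, and Xbp1 in 15 of 16. Eif2ak1 lay below it in 13 of 15 and Mbtps1 in 11 of 16. In A, Xbp1, Atf6, Eif2ak3, Ern1 and Eif2ak1 lay above the median in every alternative that gives A, and Xbp1 by at least 1.43. Eif2ak2 lay above it in 3 of 14, Eif2ak4 in 2 of 13 and Mbtps1 in 1 of 14.

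**Figure D5:**
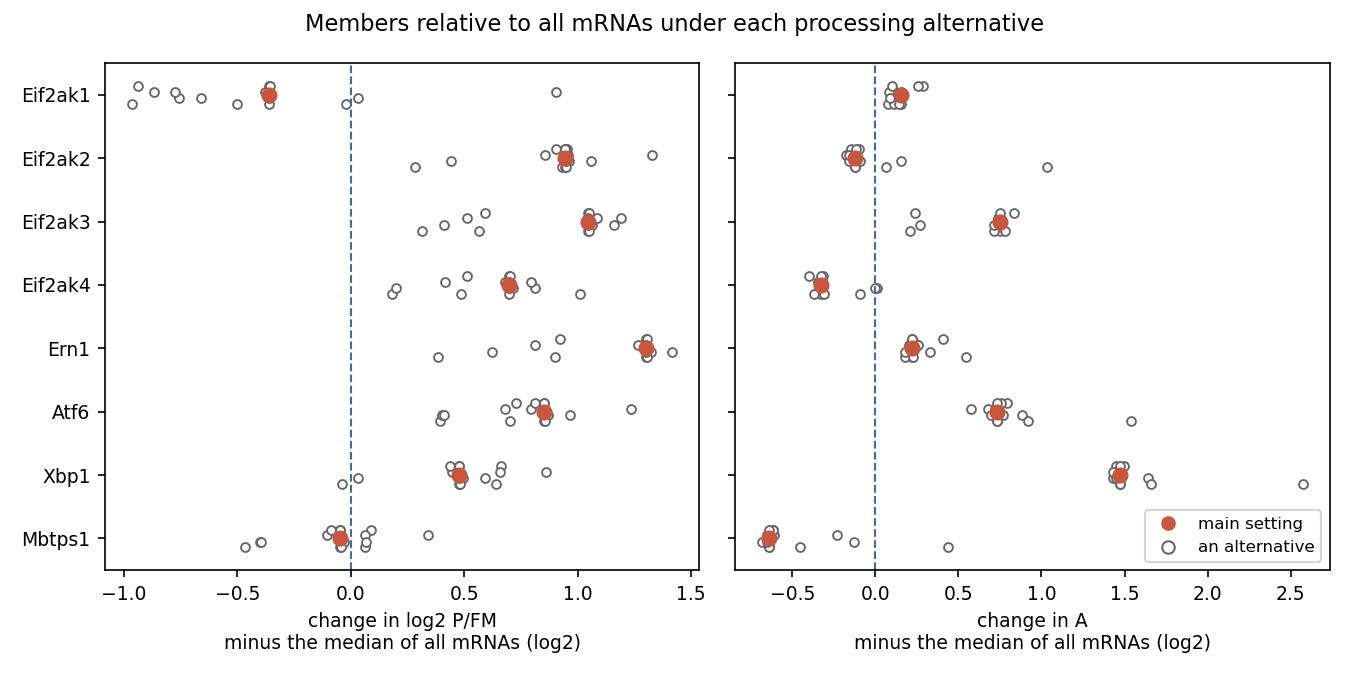
Change in log2 P/FM (left) and in A (right) of each member minus the median of all coding mRNAs, on the log2 scale, in the main setting (red) and in each alternative (open circles); the dashed line at 0 is the median. Xbp1 lies at 1.43 or more in A throughout, and Mbtps1 has points on both sides of 0 in log2 P/FM.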

How the data were processed

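Per the labels and the study's methods, RNA of both fractions was labelled in the proportions of the gradient (300 ng in all) and hybridised to 2-colour Agilent arrays. The authors extracted the deposited intensity values with Agilent Feature Extraction 10.7.1 and did not normalize them. The deposited files also hold processed intensities, a log10 ratio of Cy5 to Cy3 and flags for background, saturation and outliers, and the authors made a table of log2 P/FM values. That table held 11483 accessions, of which 99.99% (control) and 100% (stressed) equalled the values computed here within 0.001.

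From each spot's mean signal its median local background was taken off, with a floor of 0.5, as the methods name for mouse. Of 43379 spots, 295 flagged as outliers were left out. Spots were averaged by probe, then accession, then gene, over accessions with A above 4.5 on both arrays. Coding mRNAs were accessions that start with NM. Symbols came from RefSeq (GRCm38.p6, for names only, 98.3% matched), and probe positions are those of the files (mm9). No annotation of that build was used, so exons and UTRs are not stated. Where a channel of a member's probe was not well above background, no change is given for that probe.

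The members and lists were chosen with earlier results of these data known. Named are all members, and from each list the highest and lowest 2 changes in each measure among genes with every probe well above background. Patterns were compared for members and for mRNAs with A above 7. The mRNAs nearest to Atf6 are not reported here. The steps were run on simulated data with implanted shifts larger than any member's change in log2 P/FM in the main setting. The simulated noise was below the spread between probes, so this run checks the code only. Alternatives were normexp with offset 50 (limma 3.58.1, R 4.3.3), no background subtraction, median signals, processed signals, the log ratio, the authors' values, loess, centring, spike-in scaling, other filters, single or brightest probes and outliers kept. RefSeq accessions alone and the log2 of P plus FM were added after seeing the data. The number of arrays limits the precision. Figures were drawn with Python 3.11.15 and matplotlib 3.10.9.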

Additional observations from a re-analysis of the deposited data

How the results depend on the processing

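Of 98 values of the main group counts and medians under the alternatives, 66 kept their size, 31 moved and 1 reversed. The other 264 values were those of single members and the counts of members above the medians of all coding mRNAs. Of these, 183 kept their size, 70 moved and 11 reversed. The median change in A over the members, 0.56, turned to -1.04 with normexp and was 0.21 without background subtraction, 0.20 with processed signals, 0.076 with centring and 0.79 with spike-in scaling. The median change in log2 P/FM, 0.06, was 0.51 with normexp, 0.43 with loess, 0.69 with centring, 2.41 with spike-in scaling and -0.31 over single probes. The median of all coding mRNAs moved with it, to 0.33 with normexp (over 18743 mRNAs), -0.15 with loess, -0.08 with centring, 1.63 with spike-in scaling and -0.64 over single probes. The count of sensitive members, 1, was 0 with normexp, no background subtraction, centring, spike-in scaling and A above 7. It was 2 with median signals, processed signals and the brightest probe, and 3 over single probes. The count with a change in log2 P/FM of 1 or more either way, 1, was 0 with normexp, no background subtraction, A above 7 and no filter, 2 with processed signals and the brightest probe, 3 over single probes and 8 with spike-in scaling. The count of inducible members, 0, was 1 with centring. The count with a change in A of 1 or more either way, 3 (all higher), was 6 with normexp (1 higher and 5 lower) and 1 with no background subtraction, processed signals and centring.

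Among single members, the change in A turned to -1.41 (Eif2ak1), -0.45 (Eif2ak2), -1.27 (Eif2ak3), -1.57 (Eif2ak4, from 0.05) and -0.93 (Ern1) with normexp. The median over the 18743 coding mRNAs that passed the filter there was -1.48. That of Eif2ak2 turned to -0.17 with processed signals and -0.23 with centring, that of Eif2ak4 under the same settings to -0.42 and -0.44 and with no filter to -0.13, and that of Mbtps1 to 0.18 with the brightest probe. The change in log2 P/FM turned to 0.31 with normexp, 1.27 with spike-in scaling and 0.23 with no filter for Eif2ak1, and to 1.59 with spike-in scaling for Mbtps1. With no filter on A, with no background subtraction and with normexp, the dim clone probes of Eif2ak1, Eif2ak3 and Eif2ak4 entered the averages of these genes. How far they account for the turns under normexp was not tested, nor were the causes of the other turns. The log ratio, the authors' values and loess give no separate A. No paired analysis was possible because each condition was 1 array, and for the same reason no replicate could be left out. Genes carried by 1 probe (Eif2ak2, Eif2ak3, Ern1 and Xbp1) have no second reading, and dim signals limit Mbtps2 and the clone probes.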

Other observations

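Promoter sequences of the members, from 250 bases before to 50 bases after the start site, were searched on both strands for motifs of the stress response, using RefSeq promoters of GRCm38.p6. They hold 9 promoters of 8 members (Eif2ak4 has 2), and Atf6 is not among them. The endoplasmic reticulum stress element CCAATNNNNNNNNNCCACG was found in 0 of 9, against 0.119% of 32851 promoters of the table, and ATTGGNCCACG in 0 of 9, against 0.0365%. The unfolded protein response element TGACGTGG was found in 0 of 9, against 0.676%, and the ATF4 element TGATGNAAT in 0 of 9, against 0.965%. The letters CCACG alone, which are part of the first pair of motifs, were found in 3 of 9 (Eif2ak1, Ern1 and Mbtps1), against 32.8% of all promoters. A match is a description of the letters in this window only, and no match says nothing about the factors.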
